A study of Bos taurus and Bos indicus with 12 samples.

Results

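Brahman skin was compared with Holstein-Friesian skin over 12 cattle, all female, with 1 Affymetrix bovine expression array for each animal. All 12 of the 12 samples entered the comparison: 6 arrays titled Brahman and 6 titled Holstein-Friesian, chosen by their titles. Each breed had 3 animals that had never met the cattle tick Rhipicephalus microplus (naive skin) and 3 that had been through repeated heavy infestations, biopsied where larvae were attached (infested skin). The naive Holstein-Friesian animals were 12 months old, the naive Brahman animals 18 months, and the infested animals of both breeds 6 months. In naive skin breed and age therefore cannot be told apart, while in infested skin the breeds were of the same age. The samples were whole-skin punch biopsies, so a gene's level depends on the mix of epidermis, glands, follicles, vessels and infiltrating cells as well as on each cell's RNA; fewer cells of a type and less RNA per cell cannot be told apart. Nothing in the labels says more of how the animals were chosen, and the p-values measure the spread between these animals.

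The Holstein-Friesian is a dairy animal of taurine descent, and the Brahman a zebu breed known for carrying fewer ticks, for a sleek coat and for tolerance of heat. Their genomes differ at many bases. An array of this kind reads each transcript with a set of short probes, summarised as 1 value per probe set, and the probes were designed largely on taurine sequence. A base difference under a probe weakens binding in 1 breed, and a difference in transcript ends or splicing between the breeds can move 1 probe set of a gene and not another. A probe set can therefore differ between breeds with no difference in the amount of the gene's RNA. Probe sequences were not analysed here, so for each difference below a probe sequence variant was not tested. Values of other probe sets of the same gene are given with the results where the array had them. Values of related and neighbouring genes are given too. A variant under 1 gene's probes need not alter them, so they cannot decide this question.

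The tissue carried the markers of skin in both breeds. The mean log2 level of 3 keratinocyte markers (KRT5, KRT14 and KRT10) was 14.24 and 14.17 in naive Holstein-Friesian and Brahman skin, and 14.15 and 14.13 after infestation. The mean over 5 fibroblast markers ran from 12.46 to 12.7 on naive Holstein-Friesian and 12.09 to 12.33 on naive Brahman arrays. In infested skin it ran from 13.09 to 13.22 in Holstein-Friesian and 13.3 to 13.72 in Brahman animals. The breeds thus did not overlap on it, in opposite order. Other marker means kept the breeds apart in 1 kind of skin only. These were KIT (mast cell) in naive skin, and SCD (sebaceous gland), adipocyte, melanocyte, and B cell and plasma cell markers in infested skin. No marker of the 16 cell types looked at passed the breed test. With 0.109% of all genes passing it, this is near the background and does not show that the breeds had the same mix of cells. RNA integrity varied between the arrays. An index of it, the mean 5′ minus 3′ log2 signal of 5 control transcripts, was between -1.39 and -0.82 on the 6 naive arrays, between -2.73 and -0.75 on the infested Holstein-Friesian arrays and between -4.91 and -2.07 on the infested Brahman arrays. The lowest values were those of infested Brahman 1 (-4.91) and infested Holstein-Friesian 1 (-2.73). Over all 12 arrays the Brahman mean was -2.06 and the Holstein-Friesian mean -1.35 (exact permutation test within naive and infested skin, two-sided, p = 0.29 over 400 arrangements, the smallest p possible being 0.005). The naive breeds differed by 0.19 and the infested breeds by -1.61. Its part in the breed differences was not tested, and values without the 2 arrays of lowest index, or with the index as a covariate, are given below where they end a named call.

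Of 24016 probe sets tested, 29 (0.121%) differed between the breeds at an adjusted p under 0.05 in a linear model with breed and infestation as terms. In Brahman skin 15 of these (0.0625%) were higher and 14 (0.0583%) lower. Called here means that a probe set passed this test, and a difference is Brahman minus Holstein-Friesian on the log2 scale, where 1 is a doubling. The called differences ran in size from 0.69 to 4.60 with a median of 1.27, against a median of 0.12 over all probe sets, and 17 of them were at least 2-fold (10 higher and 7 lower). In the same model 6577 probe sets (27.4%) passed for infestation, a coefficient that carries the age differences of the groups, and 12 of the 29 breed calls passed for it too.

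Every one of the 29 called probe sets held in both kinds of skin: the difference had the same sign, and the 3 Brahman arrays lay wholly above or wholly below the 3 Holstein-Friesian arrays, in naive skin and again in infested skin. This share (0.121% of probe sets) describes the calls and is no separate evidence, since the same arrays gave the pooled test. Of all probe sets, 344 (1.43%) kept the breeds apart in both kinds of skin in 1 direction, 196 higher (0.816%) and 148 lower (0.616%), while 174 (0.725%) kept them apart in opposite directions. In the 29 calls the median size was 1.20 in naive and 1.24 in infested skin, and 13 had the larger difference in naive skin.

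**Figure D1:**
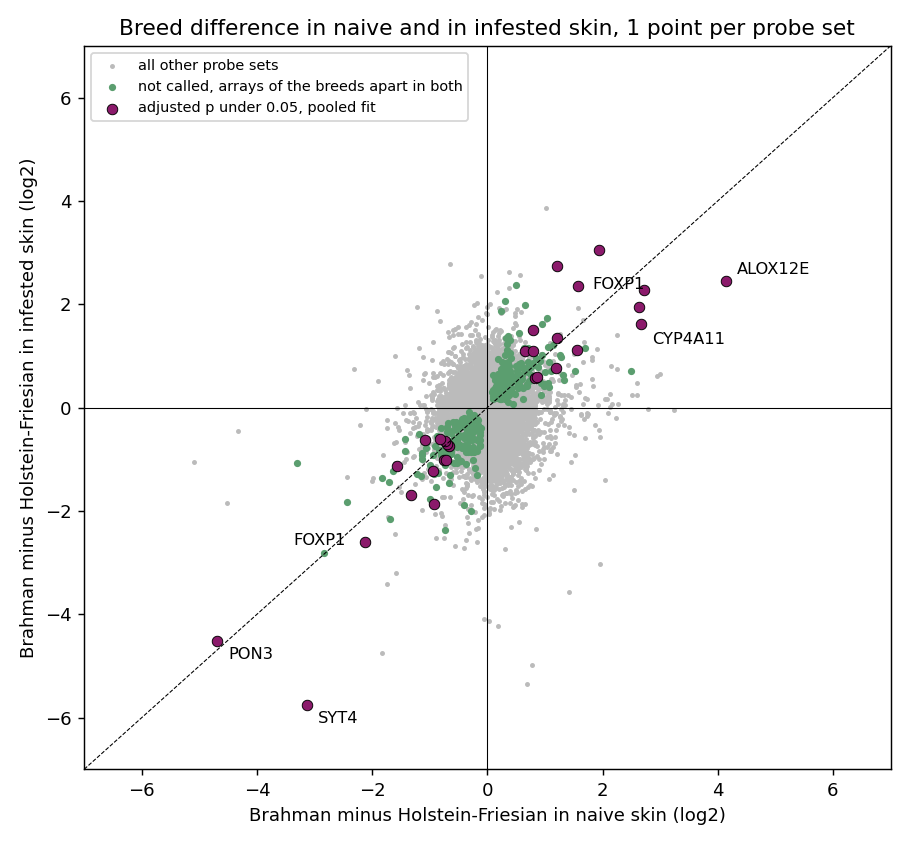
Breed difference (Brahman minus Holstein-Friesian, log2) of each of the 24016 probe sets in naive skin (horizontal axis) and in infested skin (vertical axis). The dashed line marks equal differences, and purple points the 29 called probe sets. Green points are those not called that kept the breeds apart in both kinds of skin in the same direction. Grey points are all others, those apart in opposite directions included. All purple points have the same sign on both axes, with PON3 and SYT4 farthest down and ALOX12E farthest to the right among them. The purple points were chosen by the pooled test on these same arrays, and the green points by their common direction. Their contrast with the grey points therefore follows from the choice and is no separate evidence.

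Of the 29 called probe sets, 12 had 1 gene symbol, and they named 11 genes. In Brahman skin the higher genes were ALOX12E, CYP4A11, MTARC2, AGA, PARM1 and TCEA3, and the lower genes PON3, SYT4, H2BC19 and ANXA8L1; FOXP1 had 1 probe set called in each direction. Several of these make enzymes that act on lipids or small molecules (ALOX12E, CYP4A11, PON3, MTARC2), others proteins of transcription and chromatin (FOXP1, TCEA3, H2BC19), of membranes and vesicles (SYT4, ANXA8L1, PARM1) or of the lysosome (AGA). These groupings were made after the calls were seen and were not tested.

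**Figure D2:**
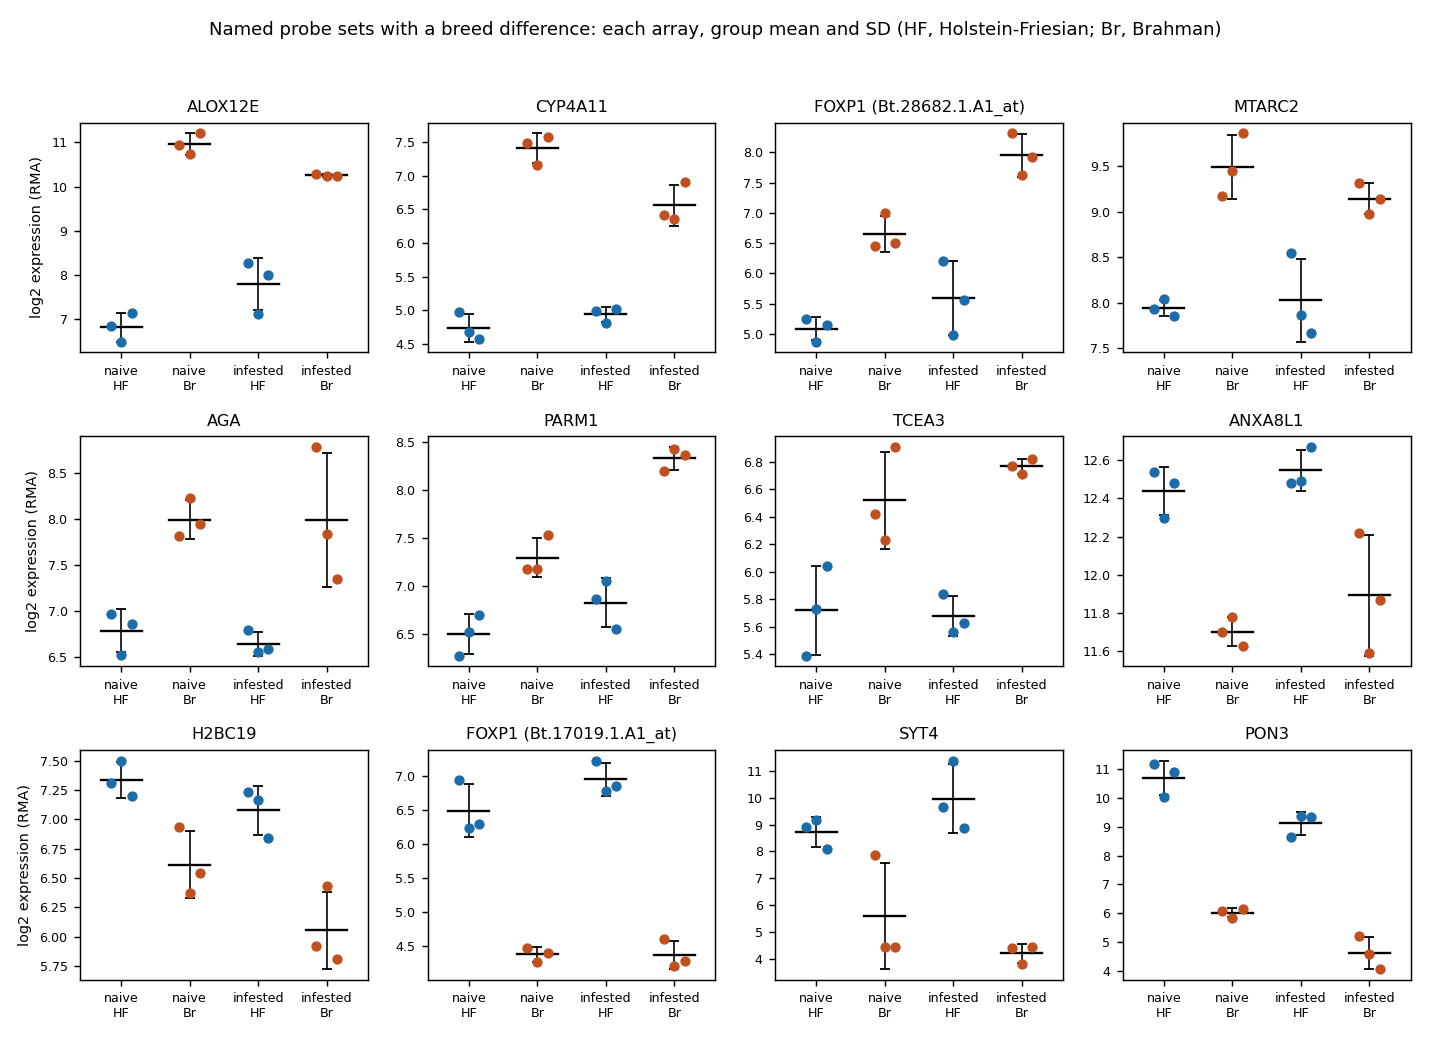
Log2 expression (RMA) of the 12 named called probe sets on each array, by group; points are single animals, horizontal bars group means and whiskers 1 SD (n = 3). In each panel the orange Brahman points of a kind of skin lie all above or all below the blue Holstein-Friesian points beside them. The pooled differences run from -4.60 for PON3 to 3.30 for ALOX12E, and the smallest is -0.69, for ANXA8L1.

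PON3 encodes paraoxonase 3, a lactonase that travels with high-density lipoprotein and protects lipids from oxidation. Its signal was 11.17, 10.04 and 10.92 on the naive Holstein-Friesian arrays and 6.08, 5.83 and 6.14 on the naive Brahman arrays. In infested skin it was 8.66, 9.37 and 9.35 in Holstein-Friesian and 5.20, 4.58 and 4.06 in Brahman animals. The lowest Holstein-Friesian array thus stood above the highest Brahman array in either kind of skin. The pooled difference was -4.60 ± 0.23 (SE, 6 against 6 arrays; 95% interval -5.11 to -4.10), 24.3-fold lower in Brahman skin (limma, adjusted p = 3.63e-06). It was nearly the same size in naive (-4.69) and infested (-4.52) skin, and infested skin was lower than naive skin by a coefficient of -1.49 (adjusted p = 0.00116). The other paraoxonase genes on the array, which lie next to PON3 in the genome, stood at 0.14 ± 0.10 (PON1) and 0.05 ± 0.16 (PON2) and did not pass. PON1 was low in every group, with means from 3.78 to 4.06, where a difference may not show.

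ALOX12E encodes an epidermal 12-lipoxygenase, an enzyme that adds oxygen to arachidonic acid. The naive Holstein-Friesian arrays read 6.84, 6.49 and 7.14 and the naive Brahman arrays 10.94, 10.73 and 11.21. The infested Holstein-Friesian arrays read 8.27, 7.13 and 8.00 and the infested Brahman arrays 10.29, 10.24 and 10.24. All 6 Brahman arrays were above all 6 Holstein-Friesian arrays, by 3.30 ± 0.30 (9.83-fold higher; 95% interval 2.64 to 3.96; limma, adjusted p = 0.000697). The difference was 4.14 in naive and 2.46 in infested skin. The change in it, -1.68 ± 0.38, had an unadjusted p of 0.00102 and an adjusted p of 0.39, so it did not pass with all arrays; without the 2 arrays of lowest integrity index the adjusted p was 0.0556, and with array weights it was 0.0468. The other 9 probe sets of 5 lipoxygenase genes, among them the neighbours ALOX12 and ALOX15, ranged from -0.41 to 0.33, with no adjusted p under 0.568.

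CYP4A11 encodes a cytochrome P450 that hydroxylates the end carbon of fatty acids. Its signal was 4.97, 4.68 and 4.57 in naive Holstein-Friesian and 7.49, 7.16 and 7.58 in naive Brahman skin, and 4.99, 4.82 and 5.02 against 6.41, 6.36 and 6.90 in infested skin. The Holstein-Friesian arrays were low and close together in both kinds of skin, and every Brahman array was above them. The pooled difference was 2.14 ± 0.20 (4.42-fold higher; limma, adjusted p = 0.000697), with 2.67 in naive and 1.61 in infested skin (interaction adjusted p = 0.447). The closely related CYP4A22 was read by 2 probe sets whose identifiers share a stem with that of CYP4A11, at 0.23 ± 0.13 and 0.36 ± 0.11, neither past the threshold (adjusted p = 0.677 and 0.387). How far reads of such similar genes are kept apart by these probes was not tested. CYP4B1, of the same family, stood at 1.13 ± 0.28 (adjusted p = 0.223).

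MTARC2 encodes a molybdenum enzyme of mitochondria that reduces N-hydroxylated compounds. It read 7.93, 8.04 and 7.86 in naive Holstein-Friesian and 9.17, 9.44 and 9.86 in naive Brahman skin, and 8.54, 7.87 and 7.67 against 9.31, 8.97 and 9.14 in infested skin. The Brahman arrays were higher throughout, by 1.33 ± 0.17 (2.51-fold; limma, adjusted p = 0.0121). When arrays were left out 1 at a time, the call was lost only without naive Holstein-Friesian 1 (adjusted p = 0.0541).

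FOXP1, a forkhead transcription factor found in many tissues, was read by 2 probe sets that went opposite ways. Bt.17019.1.A1_at was lower in Brahman skin: it read 6.94, 6.24 and 6.30 against 4.47, 4.26 and 4.40 in naive skin and 7.23, 6.78 and 6.85 against 4.60, 4.21 and 4.28 in infested skin, Holstein-Friesian first. Bt.28682.1.A1_at was higher in Brahman skin: it read 5.25, 4.87 and 5.15 against 6.46, 7.0 and 6.51 in naive skin and 6.21, 4.99 and 5.57 against 8.32, 7.62 and 7.92 in infested skin. In either probe set all 6 arrays of 1 breed were above all 6 of the other. The Brahman values on Bt.17019.1.A1_at were low, and signal over background is unknown here. The pooled differences were -2.35 ± 0.16 (5.11-fold lower, limma, adjusted p = 3.99e-05) and 1.96 ± 0.23 (3.90-fold higher, adjusted p = 0.00627). With the gene's probe sets opposed, no direction can be given for FOXP1 as a gene. The 4 probe sets of FOXP2, FOXP3 and FOXP4 ranged from -0.21 to 0.19 and did not pass.

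TCEA3, an elongation factor that helps RNA polymerase II past pauses, was higher in Brahman skin by 0.94 ± 0.14 (1.92-fold; limma, adjusted p = 0.0368). It read 5.39, 5.73 and 6.04 against 6.42, 6.23 and 6.91 in naive skin and 5.84, 5.56 and 5.63 against 6.77, 6.71 and 6.82 in infested skin, Holstein-Friesian first. The gap between the breeds was narrow in naive skin, from 6.04 to 6.23. The probe set named for H2BC19, of the histone H2B family, was lower by -0.87 ± 0.14 (1.83-fold, adjusted p = 0.049), at 7.31, 7.50 and 7.20 against 6.93, 6.37 and 6.54 in naive skin and 7.23, 7.16 and 6.84 against 5.92, 6.43 and 5.81 in infested skin. Histone H2B genes have near-identical copies, so which copies this probe set reads is uncertain. TCEA3 passed in 3 of the 12 fits that left out 1 array, and H2BC19 in 1. The H2BC19 call was lost without the 2 arrays of lowest integrity index (adjusted p = 0.0772), and with the index as a covariate neither H2BC19 (adjusted p = 0.0848) nor TCEA3 (adjusted p = 0.0641) passed.

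SYT4 encodes a synaptotagmin, a membrane protein of vesicle traffic. On the called probe set the Holstein-Friesian arrays read 8.90, 9.15 and 8.09 in naive and 9.64, 11.38 and 8.88 in infested skin. The infested Brahman arrays read 4.39, 3.81 and 4.44, and the naive Brahman arrays 7.86, 4.43 and 4.46. Naive Brahman 1 thus stood near the Holstein-Friesian range and the other 5 Brahman arrays far below it. The pooled difference was -4.45 ± 0.69 (21.8-fold lower; 95% interval -5.95 to -2.94; limma, adjusted p = 0.043), with -3.14 in naive and -5.76 in infested skin. It passed in only 1 of the 12 fits that left out 1 array, where it ranged from -5.10 to -3.99. It did not pass without the 2 arrays of lowest integrity index (adjusted p = 0.0655) or with the index as a covariate (adjusted p = 0.0751). The gene's other probe set stood at -0.83 ± 0.36 (adjusted p = 0.588). The other 8 probe sets of synaptotagmin genes, that one included, ranged from -0.83 to 0.16; SYT17, at -0.60 ± 0.10 on 1 of its probe sets, came closest to passing (adjusted p = 0.0656).

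ANXA8L1, an annexin that binds phospholipid in the presence of calcium, was high on every array. It read 12.54, 12.30 and 12.48 against 11.70, 11.78 and 11.63 in naive skin and 12.48, 12.49 and 12.67 against 12.22, 11.59 and 11.87 in infested skin, Holstein-Friesian first. The difference of -0.69 ± 0.11 (1.62-fold lower; limma, adjusted p = 0.043) was the smallest among the named calls. It passed in 1 of the 12 fits that left out 1 array (highest adjusted p = 0.13). The other 13 probe sets of annexin genes ranged from -0.22 to 0.47, with no adjusted p under 0.408.

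PARM1, a mucin-like membrane protein, was higher in Brahman skin by 1.15 ± 0.15 (limma, adjusted p = 0.0178). It read 6.28, 6.53 and 6.7 against 7.18, 7.18 and 7.53 in naive skin, and 6.87, 7.06 and 6.56 against 8.20, 8.43 and 8.37 in infested skin. Its difference was larger in infested skin (1.5 against 0.79), but the change in it did not pass (interaction adjusted p = 0.618). PARM1 was also higher in infested than in naive skin, by 0.68 (adjusted p = 0.00791). The breed call passed in 10 of the 12 fits that left out 1 array, with the highest adjusted p (0.059) without naive Holstein-Friesian 1.

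AGA, a lysosomal enzyme that splits sugar from asparagine in glycoprotein breakdown, had 2 probe sets. Bt.3115.1.A1_at read 6.97, 6.52 and 6.86 against 7.81, 8.22 and 7.94 in naive skin and 6.79, 6.55 and 6.59 against 8.78, 7.83 and 7.35 in infested skin, and was higher in Brahman skin by 1.27 ± 0.20 (2.42-fold; limma, adjusted p = 0.043). It passed in 2 of the 12 fits that left out 1 array (highest adjusted p = 0.12). The other, Bt.20077.1.S1_at, stood at -0.20 ± 0.14 (adjusted p = 0.743), with arrays between 9.37 and 10.23. The breeds overlapped on it in both kinds of skin.

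**Figure D3:**
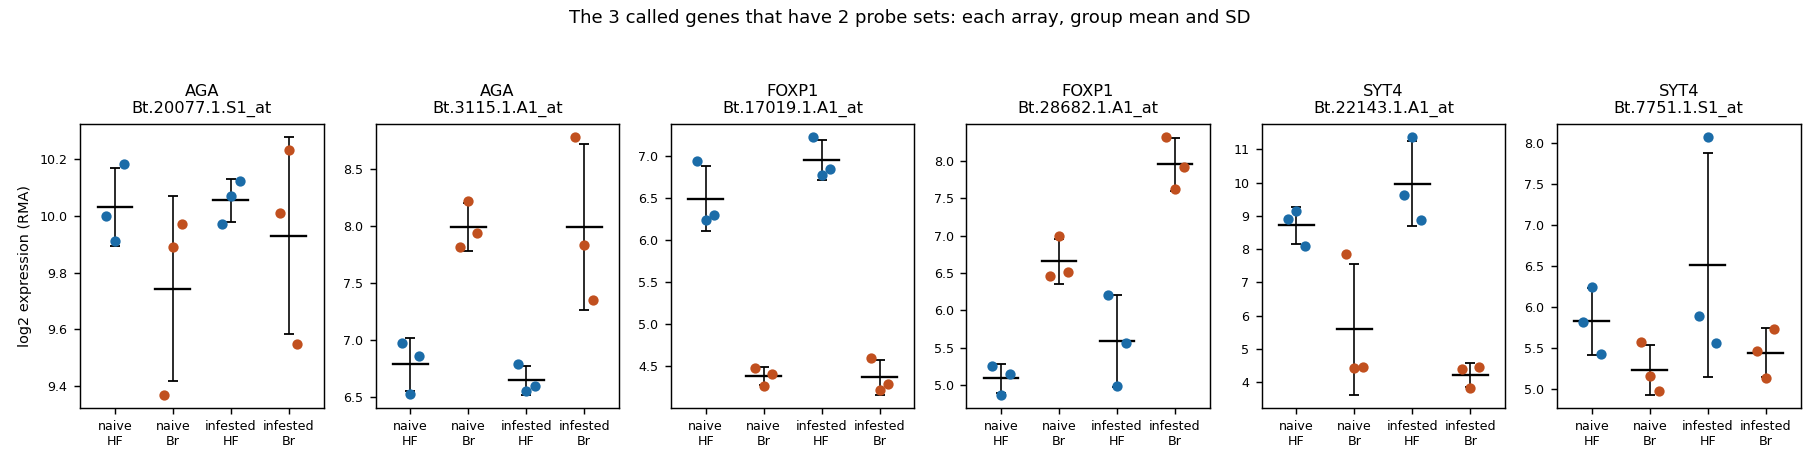
Log2 expression (RMA) of both probe sets of the 3 called genes that had 2 on the array (AGA, FOXP1, SYT4), each array by group, with the group mean and 1 SD (n = 3). The FOXP1 probe sets are separated by breed in opposite directions, and for AGA and SYT4 only 1 probe set of the pair was called. On the called SYT4 probe set naive Brahman 1, at 7.86, lies close to the lowest naive Holstein-Friesian array, at 8.09.

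Of the 2913 genes with at least 2 probe sets, 3 had a breed call: FOXP1 with both directions, and AGA and SYT4 with 1 of 2 called. None had 2 probe sets called in 1 direction (0%). The other called genes, PON3, ALOX12E and CYP4A11 among them, had only 1 probe set each, so no second reading was available. In the same model the infestation coefficient was called for 1584 such genes, with 2 or more probe sets going 1 way in 298 (18.8%), 1 called probe set in 1151 (72.7%) and both directions in 135 (8.52%). With 3 genes called for breed these shares cannot be compared. By the wider criterion of arrays apart in both kinds of skin, 66 such genes had at least 1 probe set, 60 had 1, 4 had several in 1 direction (DECR1, MBD1, SEL1L3 and TIMELESS) and 2 had both directions.

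The genes that lie on either side of the called genes were read for the same difference. All 11 called genes were found in the RefSeq gene table, and none of the 22 nearest measured genes passed the breed test at an adjusted p under 0.05 or kept the breeds apart in both kinds of skin. Their differences ranged from -0.77 to 0.61. With 0.109% of all genes called and 1.51% kept apart, a count of 0 among 22 is near the background and says nothing particular of these neighbours.

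Of the other called probe sets 16 had no gene symbol and 1 had several. Bt.8505.1.A1_at was higher in Brahman skin by 2.50 ± 0.29 (5.64-fold; limma, adjusted p = 0.00627), at 5.49, 5.30 and 5.38 against 7.80, 8.16 and 8.38 in naive skin and 5.72, 6.21 and 7.46 against 9.18, 7.94 and 9.08 in infested skin. Bt.6848.1.S1_at was higher by 2.29 ± 0.19 (4.88-fold, adjusted p = 0.000439), and Bt.1706.1.S1_at was lower by -1.35 ± 0.16 (2.55-fold, adjusted p = 0.00627). Both kept all 6 Brahman arrays to 1 side of the 6 Holstein-Friesian arrays. Genes with a symbol made up 41.4% of the calls against 55.4% of the probe sets tested.

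Fitted as 4 group means, 5 probe sets passed in each kind of skin separately: PON3, ALOX12E, CYP4A11, FOXP1 on Bt.17019.1.A1_at and the unnamed Bt.6848.1.S1_at. When the naive arrays were fitted alone, 64 probe sets (0.266%) passed for breed, and 11 of them were among the 29 pooled calls. In infested skin 48 of the 64 (75.0%) had the same sign, against 49.6% of all probe sets, and 17 kept the breeds apart there too in the same direction, where 3218 of all probe sets (13.4%) kept them apart in either direction. Their median size was 1.54 in naive skin, on which they were chosen, and 0.62, in the same direction, in infested skin; a smaller value in arrays not used for the choice follows from such a choice by itself. When the infested arrays were fitted alone, 1 probe set with no gene symbol (0.00416%) passed, with 1570 at an unadjusted p under 0.05. It was not among the 29 pooled calls, and none of those passed in this fit, where the breeds were of the same age. The lowest adjusted p among the 29 was 0.0526 (PON3, and FOXP1 on Bt.17019.1.A1_at), and ALOX12E and CYP4A11 stood at 0.242. The 4 lowest values of the integrity index were all on infested arrays.

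CYP2B6, a cytochrome P450 of drug metabolism, passed in naive skin and not over all arrays. It stood at -5.10 in naive skin (naive arrays alone, limma, adjusted p = 0.000329) and -1.06 in infested skin, and the pooled difference of -3.08 ± 0.92 did not pass (adjusted p = 0.338). The change between the 2 kinds of skin was itself not past the threshold (interaction adjusted p = 0.657). The naive breeds differ in age as well.

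A breed difference that itself differed between naive and infested skin was called for 1 probe set (0.00416%), of PCOLCE, a secreted protein that speeds the trimming of procollagen. It read 9.61, 9.61 and 9.67 in naive Holstein-Friesian and 8.96, 8.95 and 9.17 in naive Brahman skin, and 10.64, 10.22 and 10.56 against 11.71, 11.98 and 11.95 in infested skin. Brahman arrays were thus below the others in naive skin and above them in infested skin, and the interaction was 2.01 ± 0.20 (limma, adjusted p = 0.019). OLFML3, an extracellular matrix protein, followed at 2.14 ± 0.26 (adjusted p = 0.0572). With all 12 arrays, unweighted, none of the 29 called breed differences had an interaction that passed. The called Bt.18426.1.A1_s_at, with no gene symbol, differed by 1.21 in naive and 2.74 in infested skin. Its interaction passed without the 2 arrays of lowest integrity index (limma, adjusted p = 0.0449) and with array weights (adjusted p = 0.0494). An interaction at an unadjusted p under 0.05 was found for 5 of the 29, a larger share than the 1792 of all 24016 probe sets. The 29 were chosen on these same arrays. The number of interaction calls hung on single arrays: it was 390 when infested Holstein-Friesian 1 was left out, and 1131 when both arrays of lowest integrity index were. It was 0, so that PCOLCE did not pass either, without any 1 of the naive Holstein-Friesian arrays. The same held without naive Brahman 2 or 3, infested Holstein-Friesian 3 or infested Brahman 2.

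Gene lists for skin structures, immune cells and metabolism were then read for breed. Each of 29 lists was represented by the probe set of highest mean for each gene, and the same reading over all 9155 genes gave 10 called genes (0.109%), 138 genes (1.51%) with the breeds apart in both kinds of skin, and a median difference of 0.01. Of the 9155 genes, 795 had an unadjusted p under 0.05 in the pooled breed test, the background for the list counts below. The lists were chosen with earlier results of these data known, so a share of called members above the background is no evidence. Only 3 lists held a called gene. Of 19 lipoxygenase, prostaglandin and leukotriene enzymes, 2 were called, both higher (ALOX12E and CYP4A11), with a list median of -0.01. The prostaglandin D2 synthase PTGDS, in this list, stood at -1.11 ± 0.21 without passing (adjusted p = 0.0862), though its arrays did not overlap in naive or infested skin. Of 28 glutathione and xenobiotic enzymes 1 was called, PON3 (list median 0.10), and of 21 genes of calcium signalling and binding 1, SYT4 (list median 0.02). No other member of these lists was called, and 4, 6 and 2 of their members, the called ones included, had an unadjusted p under 0.05.

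Immune lists held no called gene, which is near the background of 0.109% of all genes. The pattern recognition protein PGLYRP1 stood at -1.57 ± 0.30 (limma, adjusted p = 0.0851), with the breeds apart in both kinds of skin, and lactoferrin (LTF) at -1.72 ± 0.44 (adjusted p = 0.243). The neutrophil chemokine CXCL5 stood at -1.55 ± 0.58 (adjusted p = 0.493). None of 13 class II and 14 class I antigen-presentation genes was called, with list medians of -0.05 and -0.13 and with 1 and 0 members at an unadjusted p under 0.05. The class II gene BOLA-DYB stood at -1.29 ± 0.33 (adjusted p = 0.244), with -0.34 in naive and -2.24 in infested skin. Of 18 T cell genes 0 were called at an adjusted p under 0.05 and 4 had an unadjusted p under 0.05, and the list median was 0.18 (0.16 in naive and 0.18 in infested skin). Among 9 B cell and immunoglobulin genes 0 were called and 3 had an unadjusted p under 0.05. Their differences ran from -2.33 to 0.45, with a list median of -0.05.

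Among structural lists, the median difference was largest for skeletal muscle genes (0.46 over 25 genes, none called and 3 at an unadjusted p under 0.05), and it was 0.79 in naive but 0.08 in infested skin. The level of 3 skeletal muscle markers ran from 6.18 to 8.17 on the naive Brahman arrays and from 6.21 to 7.48 on the naive Holstein-Friesian arrays, so the breeds overlapped. Muscle is not a layer of skin proper, and how much of it each biopsy took was not tested. The muscle enzyme CA3 stood at 1.52 ± 0.71 (limma, adjusted p = 0.614) and the myosin light chain MYL1 at 1.38 ± 0.65 (adjusted p = 0.618), while creatine kinase CKM stood at -0.32 ± 0.19 (adjusted p = 0.698). The lowest member was the muscle intermediate filament DES, at -1.0 ± 0.41 (adjusted p = 0.532). Smooth muscle and vessel genes had the lowest list median (-0.28 over 26 genes, none called and 3 at an unadjusted p under 0.05), and DES belongs to this list as well.

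Of 12 melanocyte pigment genes, none was called and 3 had an unadjusted p under 0.05 (list median -0.22). Tyrosinase (TYR), which starts melanin synthesis, stood at -1.50 ± 0.39 (limma, adjusted p = 0.253), and TYRP1 at 0.03 in naive and -4.14 in infested skin. The mean level of 4 melanocyte markers lay between 5.36 and 6.75 on the infested Brahman arrays and between 7.76 and 8.76 on the infested Holstein-Friesian arrays, but overlapped in naive skin. Coat colour and body site by animal were not analysed here. In the epidermal list the keratin KRT6B stood at -2.19 ± 0.72 (adjusted p = 0.401), with -3.30 in naive and -1.08 in infested skin and no overlap in either. In the dermal matrix list tenascin C (TNC) stood at -1.36 ± 0.30 (adjusted p = 0.144), and of 31 genes 0 were called and 3 had an unadjusted p under 0.05. Lipid uptake genes had a list median of 0.21 over 17 genes, none called and 4 at an unadjusted p under 0.05, with the fatty acid transporter CD36 at 1.40 ± 0.31 (adjusted p = 0.145).

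**Figure D4:**
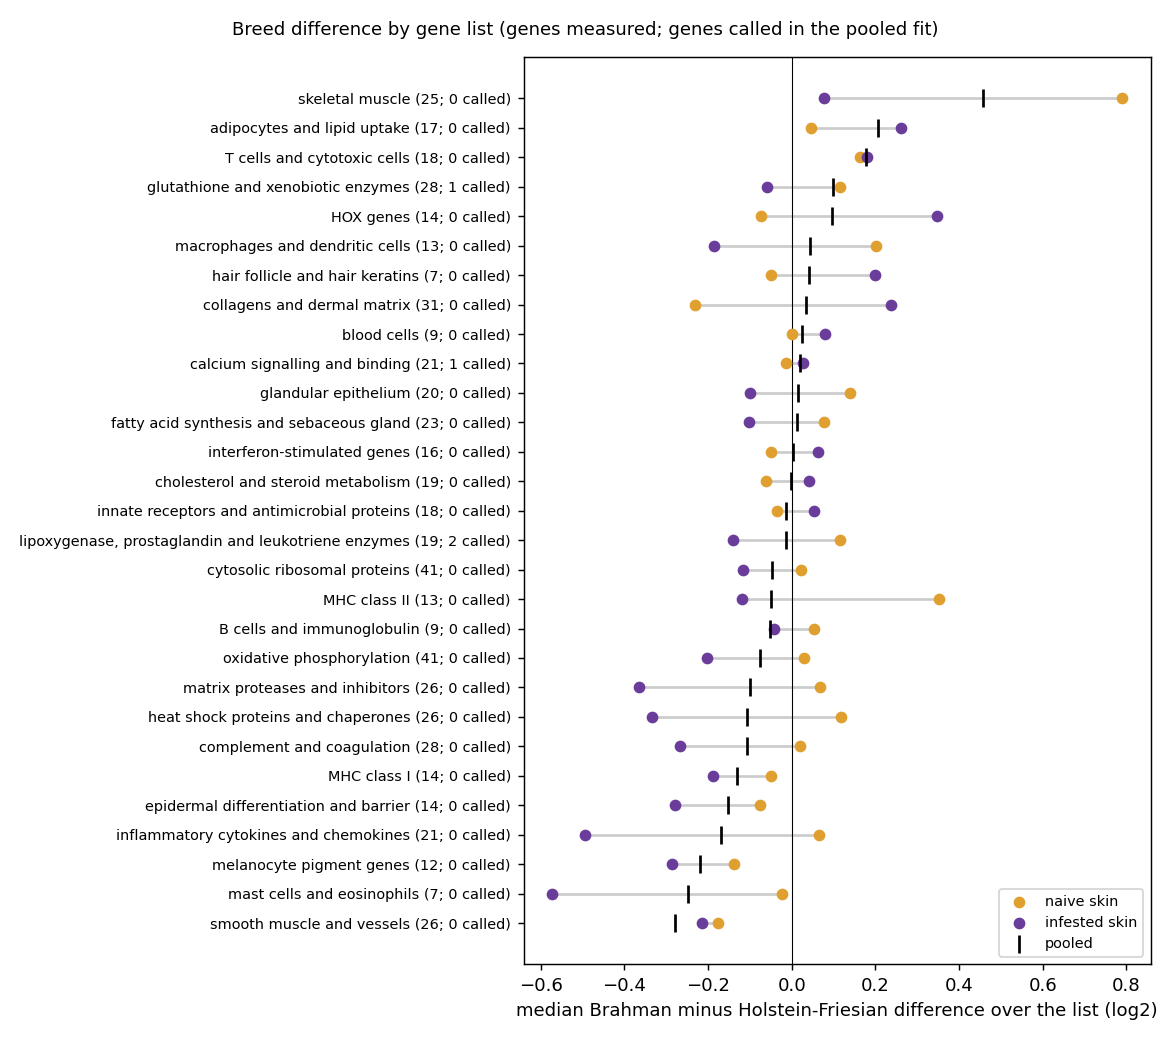
Median breed difference (Brahman minus Holstein-Friesian, log2) over the measured genes of each of 29 lists, in naive skin (yellow), infested skin (purple) and pooled (black bar), with the number of genes measured and called beside each name. Most pooled medians lie near 0; skeletal muscle is at 0.46 through the naive arrays, and only the lipoxygenase, xenobiotic and calcium lists hold called genes.

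The number of calls varied with single arrays, while the signs of the called differences did not. Leaving out 1 of the 12 arrays at a time gave between 9 and 49 called probe sets, of which 9 to 25 were among the 29. The lowest count came without naive Holstein-Friesian 1, and the highest without infested Brahman 1, the array of lowest integrity index. The count was 11 to 16 without naive Holstein-Friesian 2 or 3, any naive Brahman array, infested Holstein-Friesian 2 or 3, or infested Brahman 2, 28 without infested Brahman 3 and 29, with 16 of the original calls, without infested Holstein-Friesian 1. In all of these fits the 29 differences kept their sign. The calls that passed in all 12 such fits were 8: PON3, both FOXP1 probe sets, CYP4A11, ALOX12E and the unnamed Bt.6848.1.S1_at, Bt.8505.1.A1_at and Bt.1706.1.S1_at. A filter that drops the 40% of probe sets with the lowest mean signal leaves out CYP4A11 (mean 5.911) and FOXP1 on Bt.17019.1.A1_at (mean 5.545). It keeps 24 of the 29 for testing. Without the 2 arrays of lowest index 77 probe sets passed, 22 of them among the 29.

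**Figure D5:**
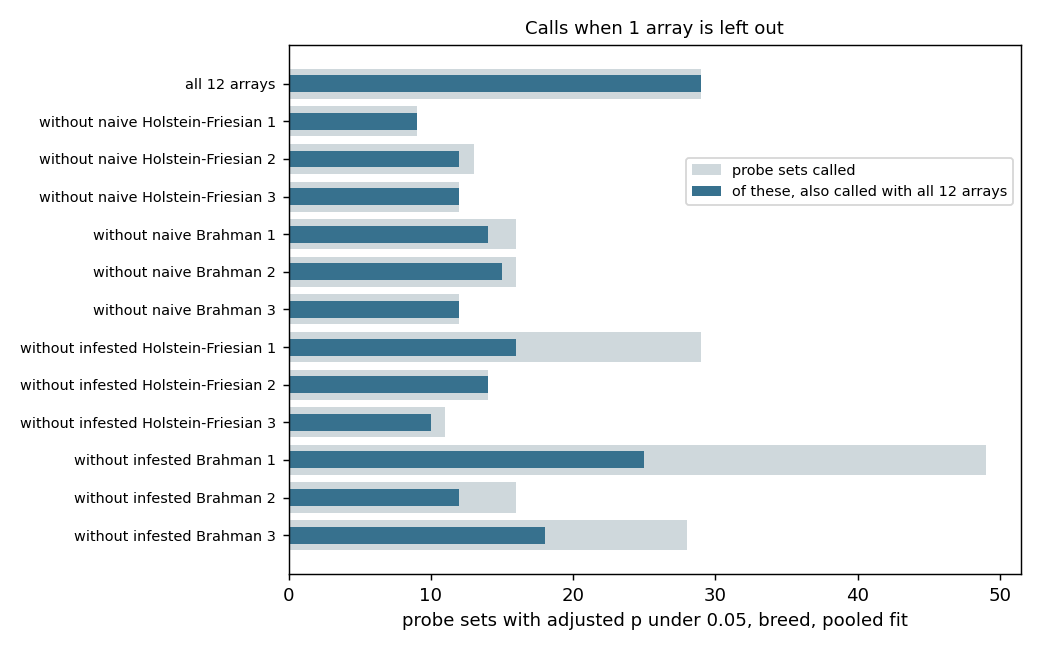
Number of probe sets called for breed (adjusted p under 0.05, pooled fit) with all 12 arrays and with each array left out; pale bars count all calls and dark bars those also called with all 12 arrays. The count is 29 with all arrays, 9 without naive Holstein-Friesian 1 and 49 without infested Brahman 1.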

How the data were processed

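The authors deposited log2 values of each probe set on each array, summarised by RMA per the submitters' processing notes, with neither software version nor chip definition given in the sources used here. That the scale is log2 was judged from the range of the values, with array medians from 6.58 to 6.73. Of 24128 probe sets, 112 controls were left out and 24016 tested with no filter on low signal. Platform annotation gave 13292 of them 1 gene symbol, 86 several (not named) and 10638 none; 13263 gene IDs were found in the RefSeq table of ARS-UCD2.0, used for names and neighbours only. Detection calls and probe sequences were not used here. The number of arrays limits the precision: the median standard error of a breed difference was 0.15.

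The model had breed and infestation as terms, fitted with lmFit and eBayes in limma 3.58.1 under R 4.3.3 (9 residual and 3.02 prior degrees of freedom). A 4-group model gave differences within each kind of skin and the interaction. P-values were two-sided and adjusted by Benjamini-Hochberg over all 24016 probe sets, with a threshold of 0.05. On simulated data with 200 changed probe sets, 70% were recovered at 1 log2 and 96% at 2 log2, and 4 of 170 calls were false. The simulated noise was normal and independent between probe sets and arrays, with no infestation effect and no array of low RNA integrity. These rates therefore need not hold for the real arrays. The comparison, the lists and the rules were chosen with earlier results of these data known. Named genes were those called with 1 symbol and up to 4 per list, called first and then by size (their highest-mean probe set), plus the 6 smallest interaction p-values; related, neighbouring and other separated genes were added after their values were seen. No 2 arrays shared more than 0.104% of their values.

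Alternatives were a low-signal filter, median centring, cyclic loess, a trended robust prior, array weights, the replicate number as a block, the integrity index as a covariate, 4 group means, each kind of skin alone, and leaving out arrays. Same-numbered arrays of the breeds did not all deviate together (correlations 0.02 to 0.33 in naive and -0.0044 to 0.19 in infested skin), so the numbers were not taken as pairs; those of the naive and infested Holstein-Friesian arrays did (0.11 to 0.25).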

Additional observations from a re-analysis of the deposited data

Results flagged for a closer look

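Over the 6 arrays of each breed, naive and infested together, 5 of 60 groups checked had an array whose gap to its nearest neighbour was a large share of the range, where chance gives about 1 group in 20. On the called SYT4 probe set, naive Brahman 1 read 7.86, with the next Brahman array at 4.46. On Bt.1706.1.S1_at, infested Holstein-Friesian 2 read 8.18, with the next at 8.67. Bt.28375.2.S1_a_at read 7.23 on naive Brahman 2, with the next at 6.99, and Bt.22637.1.S1_at read 8.39 on infested Holstein-Friesian 1, with the next at 9.02. The integrity index of infested Holstein-Friesian 1 was -2.73, the lowest of its breed.

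The breed difference of PCOLCE was tested for a change between naive and infested skin, and the interaction was 2.01 (limma, adjusted p = 0.019), with the breeds in opposite order in the 2 kinds of skin. The call was lost without any 1 of the naive Holstein-Friesian arrays, among other fits that left out 1 array, and with the replicate block.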

How the results depend on the processing

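With all arrays, 29 breed probe sets were called and held, 1 interaction was called, and the share of genes with agreeing calls was 0%. Called, then held, were 17 and 17 with the low-signal filter (14409 tested), 110 and 76 with array weights, and 77 and 77 without the 2 arrays of lowest index. Only 17 calls were at least 2-fold. Naive arrays alone gave 64 calls and infested arrays alone 1, which was not among the 29. Fitted as 4 group means, 5 passed in each kind of skin. With the replicate block, 13 were called, 11 of them among the 29, 11 held, and 0 interactions passed; of the named calls it ended those of PARM1, TCEA3, AGA, SYT4, H2BC19 and ANXA8L1 (adjusted p between 0.0523 and 0.071). Interactions numbered 2 with cyclic loess, 648 with array weights and 1131 without the 2 arrays of lowest index. The share of agreeing genes was 14.3% with array weights, 11.1% with the index covariate and 20% without those 2 arrays. The cause of these moves was not tested, beyond fewer probe sets or arrays. Leaving out 1 array gave 9 to 49 called, 9 to 49 held, 0 to 390 interactions and a share of 0% to 22.2%. Median centring, cyclic loess, the trended prior, the index covariate and 4 group means kept the number called within 1.5 times of 29. The sets called differed more. Of the 29, 19 were still called with median centring, 27 with cyclic loess, 22 with the trended prior, 20 with the index covariate and 23 with 4 group means. No setting reversed a called difference, and 11 of 29 passed in every setting with all arrays and all probe sets.

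Genes not called changed sign in some settings. In naive arrays alone the differences were 0.082 for BOLA, 0.68 for IGCGAMMA, 0.044 for CD14, 0.31 for CXCL2, 0.030 for TYRP1, -0.015 for HOXA9, -0.10 for HOXA5, 0.19 for PF4, 0.31 for HBB and 0.11 for RPS9. In infested arrays alone they were -0.22 for BOLA-DQA1 and -0.055 for GSTA2. With the index covariate BOLA was 0.16 and RPS9 0.032, and without the 2 arrays of lowest index BOLA was 0.045. Leaving out 1 array gave -1.946 to 0.116 for BOLA and -0.236 to 0.054 for HBB. Of 638 list medians recomputed, 2 moved by more than their spread. Signal over background is unknown here, which limits what can be said of low probe sets.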

Other observations

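Among probe sets that kept the breeds apart in both kinds of skin without passing the test, a few named genes stood out by their values and were chosen after those were seen. DECR1, a mitochondrial enzyme that completes the beta-oxidation of unsaturated fatty acids, was the only one of them with a difference over 1 on 2 probe sets, at -1.92 ± 0.39 and -1.60 ± 0.33 (limma, adjusted p = 0.11 and 0.113). TIMELESS, a protein of replication forks, stood at -0.93 ± 0.20 and -0.50 ± 0.13. KIF3A, a motor protein of cilia, stood at -2.13 ± 0.41 (adjusted p = 0.0863), the transglutaminase TGM2 at -1.23 ± 0.28 (adjusted p = 0.151) and the growth factor receptor PDGFRA at -0.92 ± 0.18 (adjusted p = 0.104).

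Values above 0 came from ACSM1, which activates medium-chain fatty acids (1.42 ± 0.26, adjusted p = 0.082), the transcription cofactor LBH (1.29 ± 0.23, adjusted p = 0.0752), PTER (1.11 ± 0.21, adjusted p = 0.0843) and MOCOS, which sulfurates the molybdenum cofactor (0.78 ± 0.15, adjusted p = 0.0978). None of these differences passed in the fit with all 12 arrays.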
